A study of Gallus gallus with 6 samples.

Results

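The frontonasal prominence (FNP), the midline outgrowth between the nasal pits that forms the upper beak, was compared between *talpid2* and control chick embryos by RNA-seq. *talpid2* is a recessive avian mutant with disrupted primary cilia and facial clefting, for which *C2CD3* is the candidate gene. The *talpid2* FNP library and the control FNP library were each made from total RNA of prominences pooled from 8 embryos at Hamburger-Hamilton stage (HH) 25. Mutant embryos came from matings of heterozygous carriers, and the labels do not say whether the embryos called control carried the allele or what sex any embryo was. Whole prominences were dissected, so mesenchyme, ectoderm, vessels and blood were sequenced together. The maxillary (MXP) and mandibular (MNP) prominences of *talpid2* and control embryos make up the other 4 of the 6 libraries and serve here as context. The quantity described is the log2 ratio of *talpid2* FNP to control FNP. It is given for the 9128 of 10337 deposited genes that lay within the authors' expression limits in all 6 libraries. The remaining 1209 genes passed these limits in fewer libraries and are described separately as low-expression genes.

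The FNP is built from cranial neural crest mesenchyme covered by ectoderm. *SHH* and *FGF8*, secreted from neighbouring zones of that ectoderm, direct its outgrowth, and BMP, WNT and retinoic acid signals act beside them. Hedgehog ligand binds the receptor PTCH1, which releases SMO, and the signal then passes through the primary cilium to the GLI transcription factors. *PTCH1* and *HHIP* are themselves transcribed in response to the signal. C2CD3 is a protein of the centriole from which the cilium grows.

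A deposited value is the log2 level of a gene relative to its own median over the 6 libraries, so levels cannot be compared between genes. With 1 library for each genotype and prominence, a difference between genotypes cannot be checked against replicates, and no p-value is given for genotype. A gene is called higher or lower where its ratio was at least 1.5-fold, a log2 ratio of at least 0.585 in size. Gene lists by function are described below beside all genes. They were written with earlier results of these data known, so the share of a list called is not an independent test. Among the 9128 genes, 112 were called higher in the *talpid2* FNP (1.23%) and 117 lower (1.28%), or 2.51% in all. A ratio above 0 was found for 50.3% of the genes. The median ratio was 0.00, the SD over genes was 0.23, and the central 95% of genes lay between -0.47 and 0.44. At a 2-fold limit, 14 genes were higher and 23 lower (0.405% in all). The same 1.5-fold limit was passed by 1.83% of the genes in the MXP and 1.40% in the MNP.

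Reads could be recovered from the steps of the values for 4280 of the 9128 genes, all with fewer than 1000 reads, and for 1067 of the low-expression genes. They are counted as bases divided by the read length of 50 bases and so need not be whole. Of the single values of genes within limits, 2.5% were whole reads. The intervals and tests below round each value and take it as a number of reads. The control FNP library was 1.21 times as deep as the *talpid2* FNP library, and the deepest of the 6 was 1.27 times as deep as the shallowest. Intervals given below are exact 95% Clopper-Pearson intervals from these reads and cover counting error only. In an exact Audic-Claverie test between both FNP libraries, 385 of the 4280 genes passed at an adjusted p of at most 0.05 (9.0%), 192 higher (4.49%) and 193 lower (4.51%). That test compares the 2 libraries and not the genotypes. The ratios were more widely spread than counting error alone gives. For genes with 200 to 500 reads their SD was 0.22, against 0.12 from counting, whereas below 20 reads the values were 0.67 and 0.69. Of the 168 genes past 1.5-fold with recovered reads, 114 had an interval that excluded 0.

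**Figure D1:**
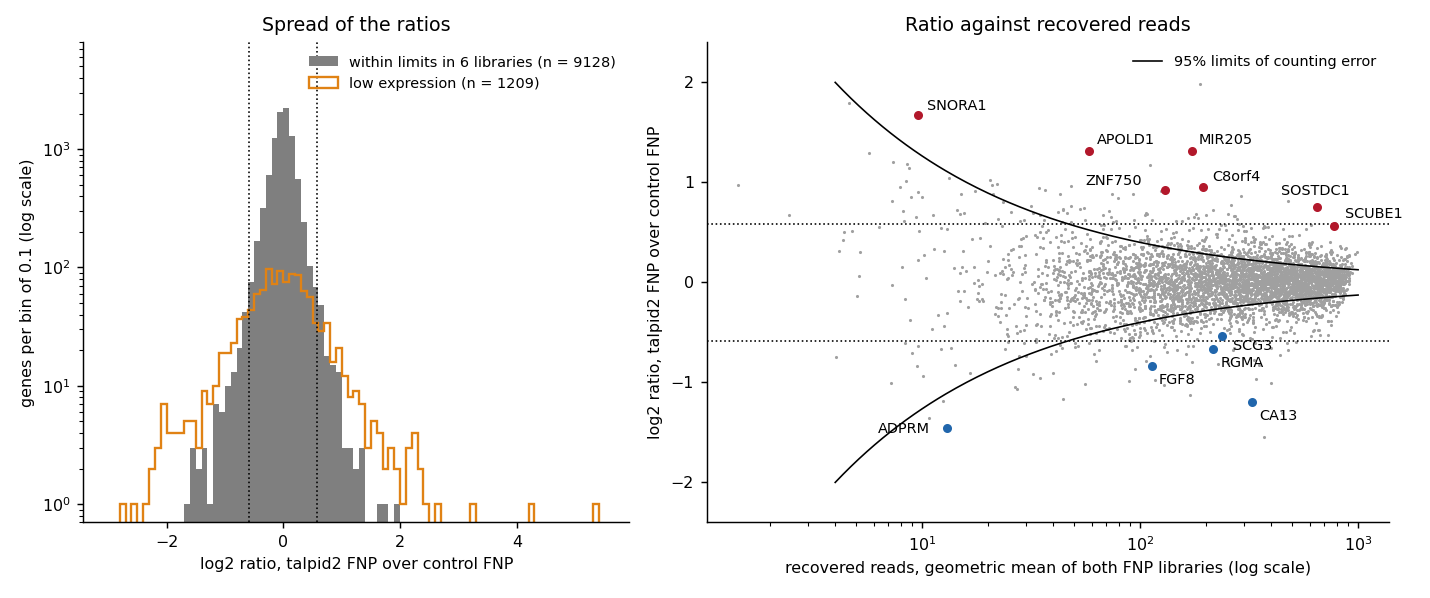
Left, the number of genes (log scale) at each log2 ratio of talpid2 FNP to control FNP, for the 9128 genes within limits (grey) and the 1209 low-expression genes (orange outline). Right, the ratio of each gene within limits against its recovered reads (log scale), with curves at the 95% limits of counting error and dotted lines at 1.5-fold. The low-expression genes spread more widely, and labelled genes such as MIR205 (1.31), APOLD1 (1.32), FGF8 (-0.84) and CA13 (-1.19) lie outside the curves.

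Markers of the prominences mostly fitted the labels. *ALX1*, a homeobox gene of frontonasal mesenchyme, had log2 values of 2.16 in the *talpid2* and 1.94 in the control FNP, against -1.73 to 0.08 in the other 4 libraries. *HAND2*, a mandibular gene, had -0.32 and -0.14 in the same FNP libraries, against 6.91 and 6.70 in the *talpid2* and control MNP. *DLX1*, a gene of the first pharyngeal arch, had -6.09 in the *talpid2* FNP and -5.95 in the control FNP, against -0.06 to 0.73 in the MXP and MNP. Both libraries labelled FNP were thus high in *ALX1* and low in *HAND2* and *DLX1*. *DLX1* was not among the markers set beforehand. *PITX1*, set as a maxillary and mandibular marker, was higher in the *talpid2* and control FNP (0.41 and -0.41) than in the MXP (-0.62 and -0.80). *DLX5*, set as mandibular, also had 0.15 and -0.15 in the FNP against -0.44 and -0.54 in the MXP. Both genes were highest in the MNP. *PAX7*, *HAND1* and *BARX1* were not analysed here.

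Of the Hedgehog ligands and receptors, *SHH* stood apart. It is a low-expression gene, within the limits in 5 libraries, with 425 recovered reads in the *talpid2* FNP against 239.7 in the control FNP. Its log2 ratio was 1.10 (interval 0.86 to 1.33), and 99.88% of the genes within limits had a lower ratio. The *talpid2* and control MXP libraries had 119 and 39.8 reads, a ratio of 1.59, and the MNP libraries 172 and 169 reads. The entry covers 3 other genes on the opposite strand, *INSIG1* (-0.39), *RBM33* (-0.23) and an unnamed gene (-0.06), from which its reads cannot be told apart if counting ignored strand. *SCUBE1*, one of a family of secreted proteins that help release lipid-modified Hedgehog ligand, had 858 and 699 reads in the *talpid2* and control FNP. Its ratio of 0.57 (0.42 to 0.71) lay just under 1.5-fold and passed the read test (adjusted p = 4.26e-12, exact Audic-Claverie test). The related *SCUBE3* had 9.84 and 16.0 reads and a ratio of -0.43 (-1.71 to 0.82).

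*PTCH1*, the Hedgehog receptor and target, had a log2 value of 0.33 in the *talpid2* FNP and 0.73 in the control FNP, a ratio of -0.40 with no recovered reads. *HHIP*, a membrane inhibitor of the ligand and another low-expression gene, had 134 and 138 reads and a ratio of 0.23 (-0.12 to 0.58). The higher *SHH* value thus stood beside a ratio below 0 for *PTCH1* and an interval that holds 0 for *HHIP*. That *PTCH1* ratio lay inside the central 95% of genes (-0.47 to 0.44). *PTCH1* lies on chromosome Z, where sex and genotype cannot be told apart. The co-receptor genes *GAS1* (-0.35), *CDON* (-0.19) and *BOC* (0.06) all lay inside the central 95% of genes. None of the 12 ligand, release and receptor genes within limits was past 1.5-fold, their median was -0.16 against 0.00 over all genes, and 9 of the 12 were negative.

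All 7 Hedgehog target genes of facial mesenchyme within limits had a negative ratio in the FNP, with a median of -0.39 and none past 1.5-fold. *MYCN*, a growth-promoting transcription factor, was lowest at -0.48. *OSR2*, a palate mesenchyme factor, had 112 reads in the *talpid2* FNP against 179.8 in the control FNP, a ratio of -0.41 (-0.77 to -0.06) that missed the read test (adjusted p = 0.118, exact Audic-Claverie test). *FOXF1*, a forkhead factor of mesenchyme, had 219 and 345 reads and a ratio of -0.39 (-0.63 to -0.14), the only gene of the list that passed the read test (adjusted p = 0.0270, exact test). MXP and MNP medians of the list were -0.01 and -0.25.

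The transducers between receptor and nucleus stood close to 0. *GLI3* had 456 reads in the *talpid2* FNP and 528 in the control FNP, a ratio of 0.06 (-0.12 to 0.24). *GLI2* had 720.3 and 881 reads and a ratio of -0.02 (-0.16 to 0.12). The *GLI2* entry was named by hand and spans a stretch of chromosome 7 that also holds *RALB*, so its value may hold reads of that gene. Farthest from 0 were *KIF7*, a kinesin of the cilium tip, at -0.36 and *EFCAB7*, which tethers the EvC complex, at 0.17. The median of the 16 transducers was -0.03.

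*C2CD3* lies on chromosome 1 from 200570510 to 200609588 in the authors' coordinates, whose assembly is not named. It had 194 reads in the *talpid2* FNP against 267 in the control FNP, a ratio of -0.18 (-0.46 to 0.08) that cannot be told from 0 at this depth. The *talpid2* and control MXP libraries had 198 and 264 reads of *C2CD3*. That MXP ratio was -0.41 (-0.68 to -0.14; adjusted p = 0.0476, exact Audic-Claverie test of both MXP libraries), and the MNP ratio was -0.16 (-0.42 to 0.11). In the FNP *NUP98*, a nuclear pore gene of the same candidate interval, had -0.21, and *NEU3*, a sialidase gene, had 0.17. Genes of the transition zone, centriole and distal appendages were mostly slightly higher, with 37 of 50 above 0, a median of 0.09 and none past 1.5-fold. *CCP110*, which caps the centriole and keeps cilia from growing, had 522 and 511 reads and a ratio of 0.30 (0.12 to 0.48). It passed the read test (adjusted p = 0.0138, exact Audic-Claverie test). Of 41 intraflagellar transport and BBSome genes, 27 were above 0 and the median was 0.05. *TTC30B*, a subunit of the transport particle, was lowest at -0.38 (-0.58 to -0.18), with 343 and 539.9 reads. It also passed the read test (adjusted p = 0.00294, exact Audic-Claverie test).

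Among genes that pattern the pharyngeal arches, most of them for transcription factors, 4 had at least 1.5-fold more transcript in the *talpid2* FNP. Of 11 within limits, 4 were called higher, against 1.23% of all genes, none was lower, and the median was 0.30. The list was written with earlier results of these data known. *PITX1*, a homeobox factor of oral ectoderm and mandible, had log2 values of 0.41 in the *talpid2* and -0.41 in the control FNP, a ratio of 0.82. In comparison, the *talpid2* and control MXP libraries had -0.62 and -0.80 and the MNP libraries 2.89 and 2.73. *LHX6* and *LHX8*, LIM-homeobox factors of oral mesenchyme, had ratios of 0.61 and 0.59. *LHX6* had -2.74 in the *talpid2* and -3.35 in the control FNP, far below its 0.99 to 1.19 in the MXP. *LHX8* had -0.10 and -0.69 in the FNP, against 2.39 and 2.02 in the MXP. *GSC*, a homeobox factor of the arches, had 88.3 and 73.0 reads and a ratio of 0.55 (0.08 to 1.01), short of 1.5-fold. It missed the read test (adjusted p = 0.138, exact Audic-Claverie test).

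*PITX1*, *LHX6* and *LHX8* had MXP ratios of 0.18 to 0.37 and MNP ratios of 0.06 to 0.21. Other members of the list did not share the direction. *EDNRA*, the endothelin receptor of arch mesenchyme, had -0.44, *NR2F2*, a nuclear receptor, had -0.37, *DLX6* had -0.14 and the low-expression gene *HAND2* -0.18. *PITX1* overlaps *PCBD2* (0.31) on the opposite strand, and the neighbour of *LHX6*, *MORN5*, had 0.64. *DLX1*, a low-expression gene far higher in the MXP and MNP than in the FNP, had -0.14.

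*MAB21L2*, which encodes a nuclear protein needed for eye and facial mesenchyme, had a ratio among the highest within limits. It had log2 values of -2.25 in the *talpid2* FNP and -3.60 in the control FNP, a ratio of 1.35, against -0.10 to 0.30 in the other 4 libraries. Its transcript was thus still far lower in the mutant FNP than in any MXP or MNP library. The file types the entry as a pseudogene, and it lies inside *LRBA* (0.20) on the opposite strand of chromosome 4, from 34138968 to 34140097. Its relative *MAB21L1* had 284 and 246 reads and a ratio of 0.48 (0.23 to 0.73). Among 21 general facial mesenchyme factors, 17 were above 0 and the median was 0.18. *PRRX1* (0.47), *MEIS2* (0.46), *TWIST2* (0.37) and *PAX9* (0.33) lay on the higher side, whereas *ZEB2* (-0.33) lay on the lower side. Of these, *MAB21L2* alone passed 1.5-fold, where 2.51% of all genes did.

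*TFAP2B* ran the other way. It encodes an AP-2 factor of neural crest and nasal mesenchyme, and its log2 value was 1.66 in the *talpid2* FNP against 2.43 in the control FNP, a ratio of -0.78. The MXP and MNP libraries lay between -0.65 and 0.08, so the gene was highest in the FNP of both genotypes and lower in the mutant. The other frontonasal factors with values, *ALX1* (0.22) and *ALX4* (-0.10), stayed within the central 95% of genes.

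*FGF8*, the ectodermal growth factor that acts beside *SHH* in the FNP, was lower in the *talpid2* FNP. It lies on chromosome 6 from 24138321 to 24145458 and had 76.9 reads in the *talpid2* FNP against 166 in the control FNP. The ratio was -0.84 (-1.25 to -0.44) and passed the read test (adjusted p = 0.000655, exact Audic-Claverie test). *talpid2* and control MXP libraries had 125 and 119 reads of the gene, and the MNP libraries 81.4 and 77.1 reads. Of 16 FGF signalling genes within limits, 12 were negative, the median was -0.20, and *FGF8* alone was past 1.5-fold (2.51% of all genes were). The Sprouty genes, feedback inhibitors that FGF signalling switches on, were also lower. *SPRY2* had 298 reads in the *talpid2* FNP against 479 in the control FNP, a ratio of -0.41 (-0.63 to -0.20; adjusted p = 0.00262, exact Audic-Claverie test). *SPRY4*, a low-expression gene, had 12.2 and 47.4 reads, a ratio of -1.69 (-2.75 to -0.76), against 34.1 to 52.6 reads in the other 4 libraries. Other genes that respond to FGF lay nearer 0. *DUSP6*, a phosphatase that limits ERK, had 0.06, and the ETS factors *ETV1*, *ETV4* and *ETV5* had 0.13, -0.02 and -0.34. The receptors *FGFR1*, *FGFR2* and *FGFR3* had -0.24, -0.17 and -0.31.

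Among 39 WNT signalling genes, 2 were called higher and 2 lower (1.23% and 1.28% of all genes were), the median was -0.07 and 26 were negative. Both genes called higher encode secreted antagonists. *SOSTDC1*, which binds the co-receptor LRP6 and also BMPs, had 768 reads in the *talpid2* FNP against 552 in the control FNP, a ratio of 0.75 (0.59 to 0.91; adjusted p = 6.08e-18, exact Audic-Claverie test). It overlaps *LRRC72* (0.72, 0.31 to 1.15), a low-expression gene of the opposite strand. *DKK4* had 52.0 and 38.1 reads and a ratio of 0.72 (0.09 to 1.37), which missed the read test (adjusted p = 0.143, exact test). *NOTUM*, which inactivates WNT ligands and is itself a target, had 0.40 (0.17 to 0.64), with 318 and 290.1 reads. Not all secreted antagonists were higher, since *SFRP1* had -0.40. Both genes called lower encode receptors. *ROR2*, a receptor for WNT5A, had log2 values of -0.65 and 0.03 in the *talpid2* and control FNP, a ratio of -0.68. *FZD7* had -0.11 and 0.50, a ratio of -0.61. *RSPO1*, a secreted enhancer of WNT signals, had 74.6 and 131 reads and a ratio of -0.55 (-0.96 to -0.11).

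The other signalling lists had medians near 0. In the BMP and TGF-beta list 1 of 31 genes was past 1.5-fold, against 2.51% of all genes. It was *BMPER*, a secreted BMP-binding protein, at 0.63 (log2 values 0.59 and -0.04). The ligands *BMP2*, *BMP4* and *BMP7* had -0.06, 0.06 and -0.11. In the retinoic acid list none of 10 genes was past 1.5-fold, and its extremes were the synthetic enzymes *ALDH1A2* at 0.54 and *RDH10* at -0.37. None of 12 Notch genes was past 1.5-fold, with the receptor *NOTCH2* (-0.44) and the co-activator *MAML2* (-0.40) farthest out. Of 17 genes of growth hormone and IGF signalling 1 was called lower, against 1.28% of all genes. It was the growth hormone receptor *GHR* at -0.60, with log2 values of 0.11 and 0.71. Of 33 axon guidance genes, *SEMA4D* (-1.01), *NRP2* (-0.72) and *RGMA* (-0.67) were called lower, against 1.28% of all genes. *SEMA4D* rests on 4.62 and 11.2 reads and its interval holds 0 (-2.74 to 0.78), and with a pseudocount of 10 reads its ratio was -0.42. *RGMA*, a repulsive guidance molecule and BMP co-receptor, rests on 156 reads in the *talpid2* FNP and 300.5 in the control FNP (-0.96 to -0.39).

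**Figure D2:**
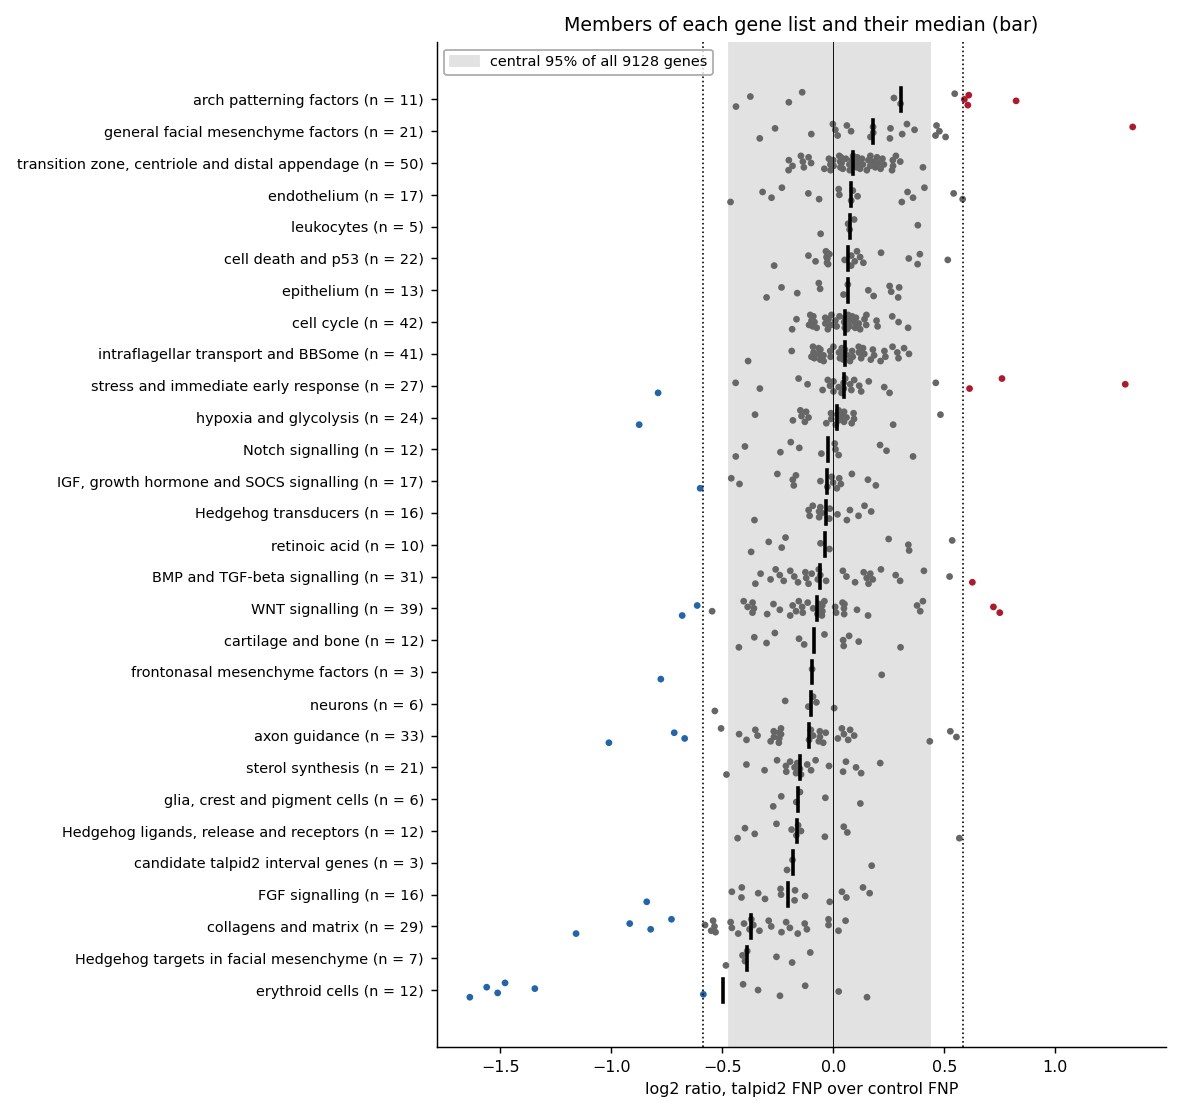
Each point is the log2 ratio of talpid2 FNP to control FNP of 1 gene within limits, in rows by gene list and sorted by the list's median (black bar). The grey band holds the central 95% of all 9128 genes, dotted lines mark 1.5-fold, and red and blue points are called higher and lower. Arch patterning factors (median 0.30) stand at one end and erythroid genes (-0.50), Hedgehog targets (-0.39) and matrix genes (-0.37) at the other.

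Genes of the extracellular matrix lay almost all below 0. Of 29 collagen and matrix genes within limits, 27 were negative, 4 were called lower (1.28% of all genes were), none was higher, and the median was -0.37. This list too was written with earlier results of these data known. *COL6A2* and *COL6A1*, neighbours on chromosome 7 that encode chains of the microfibrillar type VI collagen, had the clearest values. *COL6A2* had log2 values of 0.79 in the *talpid2* FNP and 1.95 in the control FNP, a ratio of -1.16. *COL6A1* had 0.60 and 1.42, a ratio of -0.82. In the MXP and MNP both genes lay between -0.67 and 0.21, so both were highest in the FNP. *COL6A3*, on its own elsewhere in the genome, had -0.23. *POSTN*, periostin of fibrous mesenchyme, had 0.10 and 1.02, a ratio of -0.92, and was also lower in the MXP (-0.71) and MNP (-0.58). *SPON1*, a secreted F-spondin, had -0.13 and 0.60, a ratio of -0.73.

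Short of 1.5-fold, the fibrillar *COL3A1* (-0.58), the small proteoglycans *OGN* (-0.55) and *LUM* (-0.54), elastin *ELN* (-0.54) and the basement membrane collagens *COL18A1* (-0.53), *COL4A2* (-0.46) and *COL4A1* (-0.43) lay lower. Within limits *SPON2* (0.06) and *COL5A2* (0.02) were the exceptions above 0. Among low-expression members of the list, *MGP*, matrix Gla protein, had 58.9 and 42.7 reads and a ratio of 0.74 (0.14 to 1.33), and *COL15A1* had 999.4 and 966 reads and 0.32 (0.19 to 0.45). MXP and MNP medians of the list were -0.20 and -0.22. Reads were recovered for 1 of the 29 genes, since these transcripts are abundant, so almost none has an interval. Cartilage and bone genes lay nearer 0, with 5 of 12 above 0, a median of -0.09 and none past 1.5-fold. *SOX9*, the master factor of cartilage, had -0.13 and *COL9A1* 0.04, and *COL11A1* (-0.43) and *MATN4* (-0.36) lay farthest out. Fewer cells of a type and less RNA per cell cannot be told apart in such bulk tissue.

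Haemoglobin genes had 4 of the 5 lowest ratios within limits. *HBZ*, an embryonic alpha-type globin of chromosome 14, had log2 values of -0.81 in the *talpid2* FNP and 0.83 in the control FNP, a ratio of -1.64. *HBE*, a beta-type globin of chromosome 1, had -0.72 and 0.84, a ratio of -1.56. *HBE1*, *HBA1* and *HBAD* had -1.51, -1.48 and -1.34. The entry named *HBE1* here carries the deposited label HBB_CHICK, and globin names differ between the deposited labels and RefSeq. For each of the 5 genes every *talpid2* library lay below every control library, and the *talpid2* FNP was the lowest of the 6. Globin genes are near-identical in parts, and reads shared between them could be split in counting.

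The erythroid list was also written with earlier results of these data known. Of 12 erythroid genes within limits 6 were called lower, against 1.28% of all genes, and the median was -0.50. The sixth was *SLC25A37*, which imports iron into mitochondria, with 67.3 reads in the *talpid2* FNP against 122 in the control FNP and a ratio of -0.59 (-1.04 to -0.15). It lay at the 1.5-fold limit, missed the read test (adjusted p = 0.0640, exact test) and was short of the limit with libraries set to *GAPDH* (-0.57) or with a pseudocount (-0.53). *UROD*, an enzyme of haem synthesis in all cells, had -0.34 (-0.50 to -0.18). The low-expression genes *KLF1*, the erythroid Krüppel-like factor, and *EPB42*, a red cell membrane protein, had 24.3 and 35.2 reads in the *talpid2* FNP, against 83.0 and 98.4 in the control FNP. Their ratios were -1.50 (-2.24 to -0.85) and -1.21 (-1.81 to -0.64). *TAL1* (-0.13) and *LMO2* (0.02), factors shared by blood and endothelium, lay near 0. *CA13*, a carbonic anhydrase gene outside the list, had 196 and 541 reads and a ratio of -1.19 (-1.44 to -0.95). The carbonic anhydrase gene on the list, *CA2*, had 374 and 406 reads and a ratio of 0.15 (-0.05 to 0.36). The part that a different amount of blood in the pools played in other values was not tested.

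Most lists of markers of other tissues had medians nearer 0. Of 17 endothelial genes 11 were above 0, with a median of 0.08, and *PECAM1* (0.58) and *EGFL7* (0.54) came closest to 1.5-fold. Of 13 epithelial genes 8 were above 0, with a median of 0.07 and a range of -0.30 (*GRHL1*) to 0.30 (*EPCAM*). *CDH1*, E-cadherin, had -0.16 and *TP63*, the basal ectoderm factor, 0.05. *SHH* (1.10) and *FGF8* (-0.84) are also ectodermal genes, and the part that a different amount of ectoderm in the pools played in their values was not tested. Leukocyte genes had a median of 0.07 over 5 genes and glia, crest and pigment genes -0.16 over 6. In the muscle list 2 genes lay within limits, and *MYL4*, a light chain of atrial and embryonic muscle, was called lower at -0.77 (1.28% of all genes were). *MYOD1*, a muscle-determining factor, had 35.8 reads in each FNP library. Of the lens list *ASL1*, a crystallin gene and a low-expression gene, had log2 values of 2.92 in the *talpid2* FNP and 0.29 in the control FNP, a ratio of 2.63 with no recovered reads. It was also higher in the *talpid2* MXP (4.15) than in the control MXP (-0.64).

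**Figure D3:**
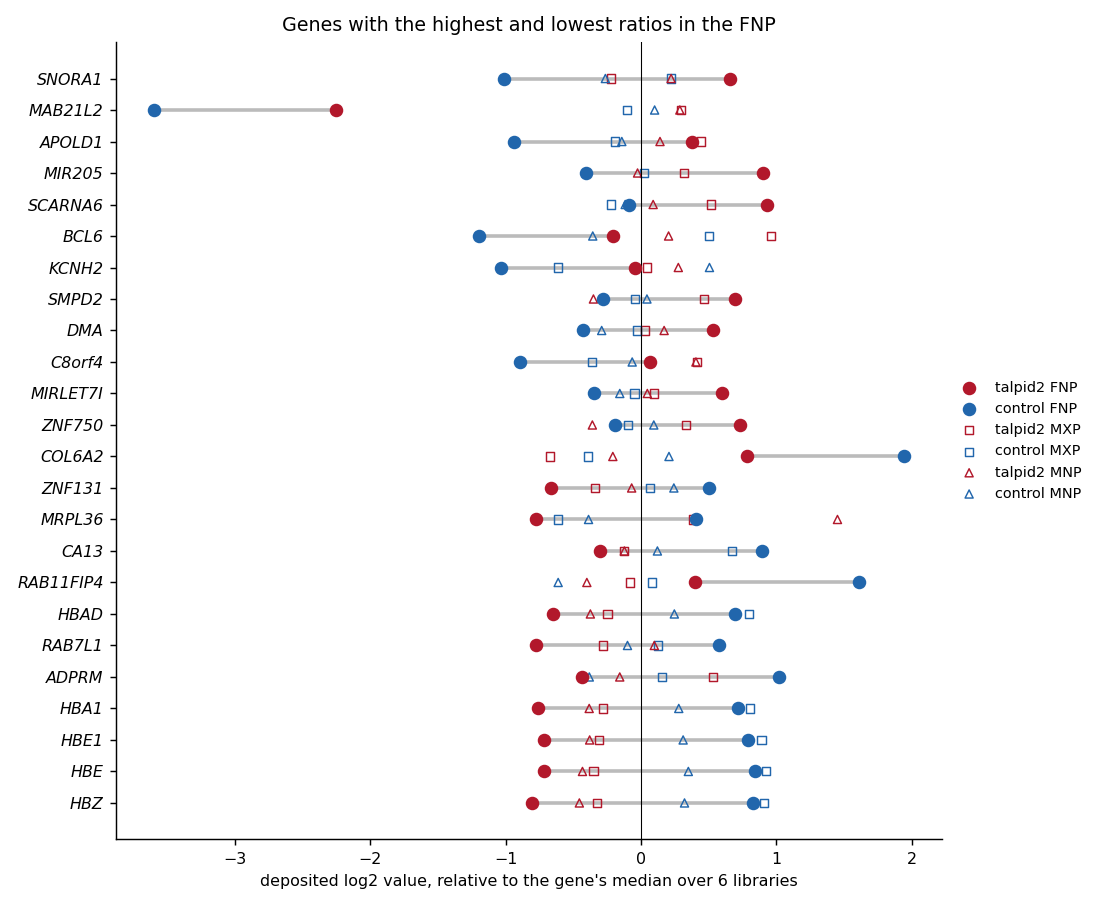
Deposited log2 values in the 6 libraries of the 12 genes with the highest and the 12 with the lowest FNP ratio, named by rule, with talpid2 in red and control in blue. Filled circles joined by a line are the FNP libraries, open squares the MXP and open triangles the MNP. MAB21L2 is far lower in both FNP libraries than elsewhere, and the 5 haemoglobin genes are lower in all 3 talpid2 libraries.

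Outside the lists, the genes lowest in the *talpid2* FNP covered varied functions. *RAB11FIP4*, an effector of the recycling GTPase RAB11, had log2 values of 0.40 in the *talpid2* and 1.62 in the control FNP, a ratio of -1.22. *MRPL36*, a mitochondrial ribosomal protein, had a ratio of -1.19, beside an MNP ratio of 1.84, while the median over 57 mitochondrial ribosomal genes was 0.03. *ADPRM* and *RAB7L1* rest on few reads, with 7.14 and 6.10 in the *talpid2* FNP and 23.6 and 18.9 in the control FNP. Both missed the read test (adjusted p = 0.0876 and 0.18, exact Audic-Claverie test). *ZNF131*, a zinc finger gene on chromosome Z, had 27.0 and 73.2 reads and a ratio of -1.17 (-1.86 to -0.51). *EGLN3*, an oxygen-sensing hydroxylase, was the 1 of 24 genes of hypoxia and glycolysis past the limit, at -0.87 with log2 values of 0.28 and 1.16. Of all genes 2.51% were past it.

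The highest ratio within limits, 1.98, belonged to *ENSGALG00000018479*, an entry with no symbol, with 342 and 104.5 reads. *APOLD1*, an early-response gene of endothelium, had 84.1 reads in the *talpid2* FNP against 40.8 in the control FNP, a ratio of 1.32 (0.75 to 1.88; adjusted p = 7.63e-05, exact Audic-Claverie test). *BCL6*, a transcriptional repressor, had log2 values of -0.20 and -1.19, a ratio of 0.99. *ZNF750*, a factor of epidermal differentiation, had 162 and 104 reads and a ratio of 0.92 (0.55 to 1.28). *C8orf4*, also named *TCIM*, had 247 and 153 reads and 0.96 (0.67 to 1.26). *DMA*, a class II histocompatibility gene, had 61.4 and 38.0 reads and 0.96 (0.35 to 1.58). *KCNH2*, a potassium channel gene, and *SMPD2*, a sphingomyelinase gene, had 0.98 and 0.97, each on fewer than 30 reads in both libraries. Both missed the read test (adjusted p = 0.179 and 0.173, exact Audic-Claverie test). In the stress and early-response list *APOLD1*, *ATF3* (0.76) and *DUSP1* (0.61) were called higher and *MYC* (-0.79) lower among 27 genes. Of all genes 1.23% were called higher and 1.28% lower, and the median of the list was 0.05. *ATF3* had 57.4 and 40.9 reads and missed the read test (adjusted p = 0.104, exact Audic-Claverie test). *MYC* had 73.6 reads in the *talpid2* FNP against 153.5 in the control FNP (-1.21 to -0.38). The heat shock genes *HSPA8* (0.13), *HSPA5* (-0.05) and *HSPH1* (0.00) stayed near 0.

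Growth and survival lists were centred near 0. None of 42 cell cycle genes was past 1.5-fold, with a median of 0.05, and *MKI67*, the proliferation marker, had the highest ratio at 0.34. *ORC1*, of the replication origin complex, had 406 and 399 reads and a ratio of 0.29 (0.09 to 0.50). None of 22 cell death and p53 genes was past the limit, and *CASP9*, a caspase, was farthest out at 0.52. Sterol synthesis genes were mostly below 0, 16 of 21, with a median of -0.15 and none past the limit.

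Small RNA genes were called more often than genes as a whole. Of 61 small nucleolar RNA genes within limits 19 were called higher and 3 lower (36.1%, against 2.51% of all genes), with a median of 0.31, and MXP and MNP medians of 0.08 and 0.11. They rest on few reads, with a median of 11.7 in the *talpid2* and 11.2 in the control FNP over 56 genes, and 3 of these had an interval that excluded 0. Among all genes with fewer than 20 reads 45.9% were past 1.5-fold. *SNORA1* (1.67) had 15.6 and 5.90 reads (0.26 to 3.33) and missed the read test (adjusted p = 0.118, exact Audic-Claverie test). Of 27 microRNA genes 7 were called higher and 2 lower (33.3%, against 2.51% of all genes). Reads were recovered for 19 of the microRNA genes, and an interval excluded 0 for 4 with a higher and 3 with a lower value. *MIR205*, a microRNA of ectoderm, had 247 reads in the *talpid2* FNP against 121 in the control FNP, with 127 to 171 in the other 4 libraries. Its ratio was 1.31 (0.98 to 1.63; adjusted p = 2.59e-14, exact Audic-Claverie test). *MIRLET7I*, of the let-7 family, had 43.6 and 27.3 reads and a ratio of 0.95 (0.25 to 1.72). It missed the read test (adjusted p = 0.0675, exact Audic-Claverie test). These libraries were not made for short RNA, and the reads of such a gene need not be its mature product. On chromosome Z, which holds *PTCH1*, *ROR2*, *GHR*, *SEMA4D* and *ZNF131*, 17 of 318 genes were past 1.5-fold (5.35%) and the median was -0.05, against 2.41% and 0.00 for the other chromosomes. The share of females in each pool is not given, so sex and genotype cannot be told apart there.

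The low-expression genes are those outside the authors' limits in at least 1 library. The lower limit appeared to act per length of gene, which was not tested. Among small RNA genes the lowest passing level was 30.1 scaled reads per 1000 bases, so a long gene might fail the limit with many reads. Of these 1209 genes, 175 were at least 1.5-fold higher (14.5%) and 205 lower (17.0%), or 31.4% in all, and the SD of the ratio was 0.73. Many of them rest on few reads.

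*LHX3*, a LIM-homeobox factor of the pituitary rudiment and of motor neurons, had 36.4 reads in the *talpid2* FNP. It was at the floor in the control FNP, which stands for at most about 1 read, and its highest value in the other 4 libraries was 2 reads. Against a floor of 3 reads in the control library it was at least 14.6-fold higher, and the lower limit of its counting interval was a log2 ratio of 3.48. *CGA*, the alpha subunit shared by pituitary glycoprotein hormones, had 86.1 and 5.48 reads in the *talpid2* and control FNP and no more than 6 elsewhere, a ratio of 4.25 (3.10 to 6.04). *PROKR1*, a prokineticin receptor, had 84.9 and 21.8 reads, a ratio of 2.23 (1.53 to 2.97). *ISL1*, a LIM-homeobox factor of pituitary and neurons, had 16.3 and 5.58 reads, a ratio of 1.82 (0.26 to 3.33). Other genes of the oral ectoderm and pituitary, chosen after these values were seen, did not share so large a ratio. *HESX1* had 51.8 and 60.6 reads and a ratio of 0.05 (-0.52 to 0.60) and *SIX6*, at the floor in every MXP and MNP library, had -0.42 (-1.14 to 0.25). *GSG1L* (2.20, interval 0.23 to 4.63), on 11.4 reads in the *talpid2* FNP, was also among the 5 highest of the genes with a name and an interval that excludes 0. So was *ASPN*, with 4.80 reads in the *talpid2* FNP and a control FNP value at the floor. The lower limit of its log2 ratio, 0.15, takes that floor as 0 reads, though it can stand for about 1 read.

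Several nerve and neurosecretory genes, most of them picked after their values were seen, were lower in the *talpid2* FNP. *CHGA*, chromogranin A of secretory granules, had 44.8 reads in the *talpid2* FNP against 229.6 in the control FNP, a ratio of -2.09 (-2.58 to -1.62), and no more than 12.8 reads elsewhere. *STMN3*, a stathmin of neurons, had 8.62 and 41.9 reads, a ratio of -2.01 (-3.17 to -0.89). *GAP43*, of growing axons, had 26.4 and 71.7 reads (-1.17, interval -1.90 to -0.53). The neurofilament genes *NEFL* and *NEFM* had ratios of -0.94 (-1.44 to -0.47) and -0.84 (-1.60 to -0.08). *GNRH1*, of the neurons that arise in the olfactory placode, had 6.36 and 28.8 reads, a ratio of -1.91 (-3.56 to -0.71). *LRRTM1*, a synaptic adhesion gene, had 6.38 and 30.2 reads and -1.97 (-3.60 to -0.76).

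Of the 8 low-expression genes on the neuron list, 4 were at least 1.5-fold lower and 1 higher, *ISL1*, each with an interval that excluded 0. Of all low-expression genes 17.0% were lower and 14.5% higher by that limit. Within limits the neuron list lay nearer 0, with 5 of 6 genes negative and a median of -0.10. *SCG3*, a secretogranin, had 179.8 and 314 reads and -0.53 (-0.80 to -0.26; adjusted p = 0.00206, exact Audic-Claverie test). *TUBB3*, neuronal tubulin, had 473 and 569.8 reads and 0.00 (-0.18 to 0.18), and the low-expression gene *STMN2* had 255 and 261 reads and 0.24 (-0.02 to 0.49). The neuronal genes thus did not share 1 ratio. The lowest ratio of the named low-expression genes was that of *ADAMTS15*, a matrix protease, with 22.0 reads in the *talpid2* FNP against 120.4 in the control FNP and a ratio of -2.18 (-2.90 to -1.51). *RGS7BP*, which anchors a regulator of G-protein signals, had -2.13 (-5.51 to -0.15) on 2.28 and 12.1 reads.

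**Figure D4:**
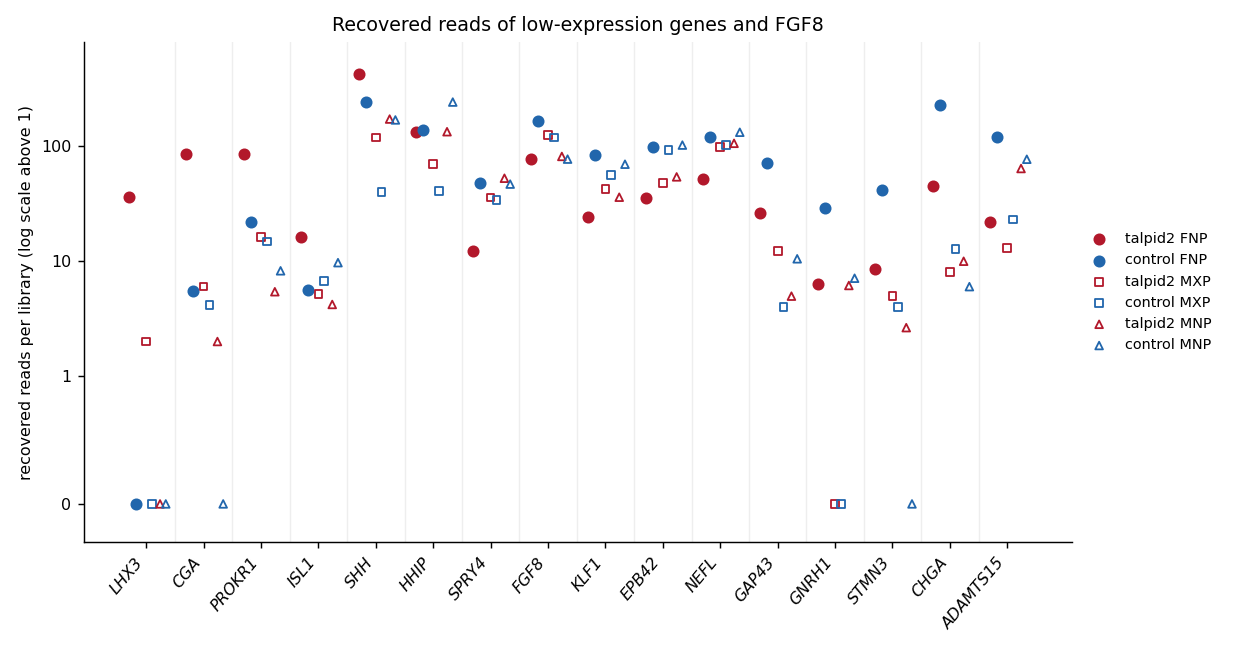
Recovered reads (log scale above 1) in the 6 libraries for low-expression genes and FGF8, with talpid2 in red and control in blue. Filled circles are the FNP, squares the MXP and triangles the MNP. LHX3 and CGA reached 36.4 and 86.1 reads in the talpid2 FNP and no more than 6 in any other library, whereas CHGA, STMN3 and GNRH1 were highest in the control FNP.

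The FNP ratios were set beside those of the other prominences. Of the 112 genes called higher in the FNP, 79 had an MXP ratio above 0 and 76 an MNP ratio above 0, and 2 passed 1.5-fold in all 3 prominences. Of the 117 called lower, 74 had an MXP ratio below 0 and 89 an MNP ratio below 0, and 6 passed in all 3. For comparison, 5409 of all 9128 genes had the same sign in the FNP and MXP and 5823 in the FNP and MNP. Past 1.5-fold in the direction of their FNP ratio were 101 of all 9128 genes in the MXP, 77 in the MNP and 11 in both. Among the genes called higher these counts were 16, 10 and 2, and among those called lower 15, 12 and 6. For the genes called higher the median FNP ratio was 0.72, beside MXP and MNP medians of 0.19 and 0.15. For those called lower the medians were -0.73, -0.16 and -0.19.

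Whether a ratio differed between prominences was tested on the recovered reads with an exact conditional test, adjusted over 4280 genes and both pairs. The test compares single libraries and covers counting error only. Since the FNP ratios were more widely spread than counting gives, its p-values can overstate a difference between prominences. The FNP ratio differed from the MXP ratio for 105 genes (2.45%), from the MNP ratio for 89 (2.08%) and from both for 32 (0.748%). The genes given next were named through their FNP ratio or after their values were seen, which favours a difference. *FGF8* had an FNP ratio of -0.84, beside 0.07 for the MXP and 0.33 for the MNP (adjusted p = 0.0456 and 0.0130 for the differences, exact test). *SCUBE1* had FNP, MXP and MNP ratios of 0.57, -0.07 and -0.55 (adjusted p = 0.000475 and 4.19e-21, exact test). *MIR205* had 1.31, 0.29 and 0.38 (adjusted p = 0.00184 and 0.0110, exact test). *MAB21L1*, named after its values were seen, had 0.48, -0.14 and -0.07 (adjusted p = 0.00536 and 0.0203, exact test). For *SOSTDC1* and *SPRY2* the difference from the MXP passed, and for *CA13* and *ZNF750* that from the MNP. For *APOLD1*, *MYC* and *RGMA* no difference passed the test (adjusted p from 0.152 to 0.968, exact test), which does not show that their ratios were equal. *MAB21L2*, *PITX1*, *TFAP2B* and the collagens have no recovered reads, so the difference could not be tested for them.

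**Figure D5:**
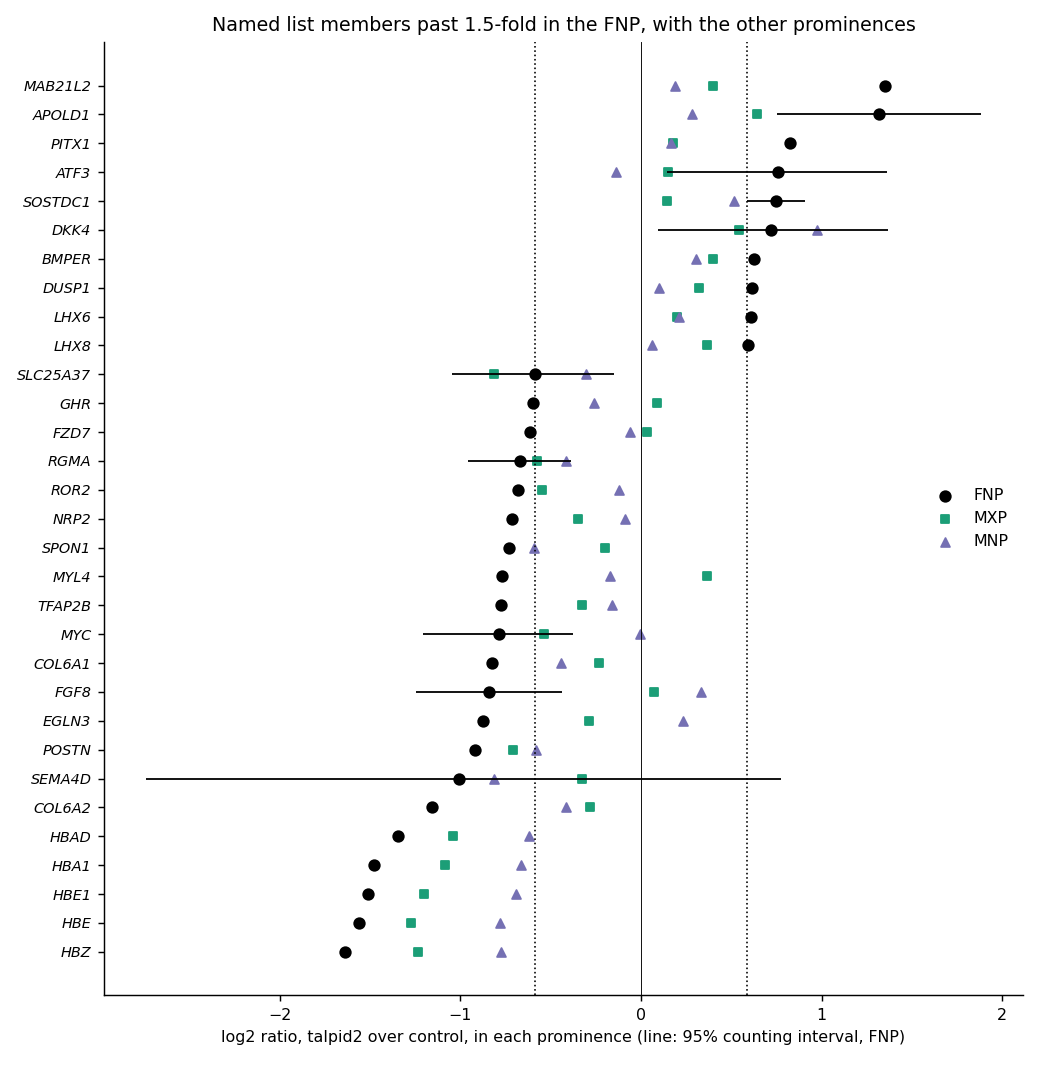
Log2 ratio of talpid2 to control in the FNP (black circle, with its 95% counting interval where reads were recovered), MXP (green square) and MNP (purple triangle) for named list members past 1.5-fold in the FNP. The haemoglobin genes and POSTN lie below 0 in all 3 prominences, whereas FGF8 is below 0 in the FNP alone.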

How the data were processed

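RNA from pooled facial prominences was amplified and made into libraries by the authors with Nugen Ovation and Illumina TruSeq kits and sequenced on an Illumina HiSeq, all 6 libraries in 1 lane according to the column names. Reads were placed on a chick genome from Ensembl and analysed in GeneSpring. The aligner, the build, the scaling and whether counting used strand are not given in the sources used here. The deposited values are log2 values: the authors scaled each library, set values below 1 to 1, and subtracted each gene's median over the 6 libraries. They also recorded in how many libraries a gene lay within limits, the lower of which was 3.0. The number of sample columns left unused was 0.

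The ratio of a gene is its *talpid2* FNP value minus its control FNP value. Reads were recovered by finding, for each gene, whole numbers of bases of 50-base reads that give its 6 values, up to 1000 reads. With deliberately wrong step sizes 1.28% and 1.11% of genes had a solution. In simulated data of both FNP libraries with 5000 genes, 98.3% of 4940 eligible genes were recovered correctly, and 1.72% of 4942 solutions were false. The read test there called 58% of genes changed 1.5-fold, 79% of genes changed 2-fold and 0.208% of unchanged genes, and 96.2% of intervals held the true ratio. For these rates the simulated reads varied by counting alone and were used directly, without recovery. The ratios of the real libraries were more widely spread than counting gives, so the rates need not hold for them. The Audic-Claverie test is the authors' test, used here with Benjamini-Hochberg adjustment. Python 3.11.15, numpy 2.4.6, scipy 1.17.1, pandas 2.3.3, numba 0.67.0 and matplotlib 3.10.9 were used. Alternatives were the genes entering, scaling to *GAPDH* or to the median ratio, a 2-fold limit, a pseudocount, unadjusted p-values and another estimate of depth.

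Gene names came from the RefSeq table of GRCg7b for 7479 of 8274 Entrez identifiers and otherwise from the file. Genes were named by a rule. It took *SHH*, *PTCH1*, *HHIP*, *GLI2*, *GLI3* and *C2CD3*, the 12 highest and 12 lowest ratios within limits among genes with a symbol and, where reads were recovered, an interval that excludes 0, and the 5 highest and 5 lowest of the low-expression genes with a symbol and such an interval. Of each of 32 lists it took the members past 1.5-fold, or the 2 farthest from 0 where none was. Any other gene named, such as *HESX1* or *NEFL*, was chosen after its values were seen. The members, lists and rule were chosen with earlier results of these data known. *GLI1*, chromosome W and some other genes that the rule names are not reported here.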

Additional observations from a re-analysis of the deposited data

Results flagged for a closer look

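For 8 genes named in the report the FNP ratio differed from that of another prominence by the exact conditional test on recovered reads, which compares libraries and covers counting error only. Over all 4280 genes tested, 162 differed from the MXP or the MNP. The 8 genes were named through their FNP ratio or after their values were seen, which favours a difference, so their number is not an independent result. The FNP ratio of *FGF8* minus that of the MXP was -0.91, and minus that of the MNP -1.17. For *MIR205* the differences were 1.02 against the MXP and 0.93 against the MNP, and for *SCUBE1* 0.64 and 1.12. For *MAB21L1* they were 0.62 and 0.55. *SOSTDC1* differed by 0.61 and *SPRY2* by -0.48 from the MXP, *CA13* by -0.95 from the MNP and *ZNF750* by 1.37 from the MNP. Of the 12 differences, the largest in size was that of *ZNF750*, which overlaps *TBCD* (-0.02) on the opposite strand.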

How the results depend on the processing

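The 229 genes past 1.5-fold became 609 over all deposited genes, 37 at 2-fold (14 higher and 23 lower) and 150 with a pseudocount of 10 on the recovered reads (67 and 83). Restriction to protein-coding genes gave 191 (81 higher and 110 lower), to genes off chromosome Z 212, and setting each library to *GAPDH* 229 (117 higher and 112 lower). By 2 alternatives chosen after seeing the data, 175 genes were past 1.5-fold where a counting interval, if there was one, had to exclude 0, and 178 where both libraries had to hold 20 reads. Genes without recovered reads were kept in both counts. Of 555 list members 32 were past 1.5-fold (5.77%, against 2.51% of all genes), 9 at 2-fold, and 71 once low-expression genes were included. The lists were written with earlier results of these data known. The read test passed 920 genes without adjustment and 497 over all genes with reads. With depth taken from the sum of recovered reads, 159 genes in place of 162 differed between prominences. No direction of a named gene past 1.5-fold turned. A pseudocount moved *CGA* to 2.80 and *LHX3* to 2.32, outside their intervals. Within their intervals it brought *ASPN* to 0.61, *GSG1L* to 0.83, *SNORA1* to 0.82, *RGS7BP* to -0.75 and *SEMA4D* to -0.42, where *SEMA4D* and *SLC25A37* (-0.53) were no longer past 1.5-fold. No paired analysis was possible because each genotype has 1 FNP library, and for the same reason no replicate could be left out. Reads over 1000 were outside the recovery, so abundant genes such as the collagens and globins have no interval.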
